A study of Mus musculus with 6 samples.

Results

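FXR binding at 53 genes that run or control autophagy and the lysosome was examined in mouse liver with and without hepatocyte Bcl6. A gene was counted as bound when a deposited FXR peak carried its name, which the annotation gives to the gene with the nearest transcription start site (TSS). Of 32535 FXR peaks in 2 lists, 119 carried one of the 53 names. The wild-type list held 76 of its 20040 peaks at these genes, and the knockout list held 43 of its 12495. A peak was found in at least 1 list for 38 of the 53 genes, and 15 genes had none.

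Chromatin came from whole livers of male C57BL/6 mice, fed or briefly fasted as the study states for its experiments in general, and the labels give no age. Control mice carried floxed Bcl6 alleles only (Bcl6 fl/fl, called WT here), and knockout mice carried the same floxed alleles with Alb-cre (Bcl6LKO, called LKO here). The albumin promoter drives Cre in hepatocytes, so other liver cells of LKO mice keep Bcl6, and the loxP sites are common to all animals. There were 2 FXR ChIP libraries and 1 input library (chromatin sequenced without antibody) per genotype. The libraries measure FXR on DNA and not Bcl6, so the deletion itself was not checked here. The WT ChIP libraries held 19022618 and 2883717 tags (aligned reads), the LKO ChIP libraries 21287263 and 22637613, and the inputs 6964271 (WT) and 6935001 (LKO). WT replicate 2 was thus the shallowest of the 6 libraries. Nothing in the labels says whether replicates were processed on separate days, and each genotype has a single peak list called on its pooled libraries, so the number of peaks has no replicate error.

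Autophagy wraps cytoplasm in a double membrane, the autophagosome, and delivers it to the lysosome for digestion. In liver it supplies amino acids and fatty acids between meals. FXR, a nuclear receptor activated by bile acids after feeding, is described to repress autophagy genes in the fed liver, while PPARα and the CREB coactivator CRTC2 activate them in fasting and TFEB drives the lysosomal genes. FXR with its partner RXR prefers an inverted repeat of a hexamer separated by 1 base (IR1), PPARα with RXR prefers a direct repeat (DR1), CREB binds the CRE, and TFEB binds the CLEAR element.

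The sequences below show where the best matches to the FXR element lay. IR1 was searched as the hexamer AGGTCA followed after any 1 base by its reverse complement TGACCT, on both strands within 100 bp of each peak centre, allowing up to 2 mismatches in the 12 bases of the hexamers. The first 3 are WT peaks with at most 1 mismatch that overlapped an LKO peak. The next is the strong Uvrag peak, which overlapped an LKO peak and had 2 mismatches. The last 2, at Tfeb and Sesn1, had 1 mismatch and were in the WT list only. All are + strand sequence of GRCm38.p6 (the mm10 assembly, RefSeq), 211 bases long, with the best IR1 match in capitals.

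Sqstm1, chr11:50197609-50197819: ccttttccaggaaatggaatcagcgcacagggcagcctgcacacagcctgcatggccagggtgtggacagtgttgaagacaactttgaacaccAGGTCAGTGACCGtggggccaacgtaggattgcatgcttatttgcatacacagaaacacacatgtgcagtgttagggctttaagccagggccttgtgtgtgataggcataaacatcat
Nbr1, chr11:101552482-101552692: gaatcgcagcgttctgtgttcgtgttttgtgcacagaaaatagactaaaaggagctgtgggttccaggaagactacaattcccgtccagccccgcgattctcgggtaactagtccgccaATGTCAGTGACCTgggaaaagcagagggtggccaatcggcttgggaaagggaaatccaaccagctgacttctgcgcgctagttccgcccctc
Atg13, chr2:91710163-91710373: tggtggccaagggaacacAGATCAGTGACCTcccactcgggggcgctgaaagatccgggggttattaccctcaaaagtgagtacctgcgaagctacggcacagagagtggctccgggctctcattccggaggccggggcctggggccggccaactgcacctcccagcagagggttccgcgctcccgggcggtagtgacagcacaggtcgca
Uvrag, chr7:99106950-99107160: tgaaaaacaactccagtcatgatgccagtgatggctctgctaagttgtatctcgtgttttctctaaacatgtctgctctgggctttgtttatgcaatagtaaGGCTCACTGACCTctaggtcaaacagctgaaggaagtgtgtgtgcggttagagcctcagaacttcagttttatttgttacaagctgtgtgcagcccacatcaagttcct
Tfeb, chr17:47750164-47750374: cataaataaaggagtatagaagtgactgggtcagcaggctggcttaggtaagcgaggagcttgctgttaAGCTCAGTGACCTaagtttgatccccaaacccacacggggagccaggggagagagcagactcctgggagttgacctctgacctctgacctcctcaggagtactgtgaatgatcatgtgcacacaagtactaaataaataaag
Sesn1, chr10:41851771-41851981: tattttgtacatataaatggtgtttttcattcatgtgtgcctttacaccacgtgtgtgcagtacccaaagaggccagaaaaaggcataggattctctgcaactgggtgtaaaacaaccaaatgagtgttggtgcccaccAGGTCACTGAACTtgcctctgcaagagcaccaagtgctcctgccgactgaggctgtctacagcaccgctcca

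In the Sqstm1 peak the match began at 50197702 and its middle lay 6 bp from the peak centre. The Uvrag match lay 3 bp from the centre, the Nbr1 match 20 bp, the Tfeb match 30 bp, the Sesn1 match 40 bp and the Atg13 match 81 bp. In LKO the Atg13 peak was centred 91 bp away from the WT one, and the same element then lay 10 bp from its centre. No peak of the 53 genes held an exact IR1.

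Of the 53 genes, 35 (66.0%) had a WT peak, against 34.5% of the 21887 protein-coding genes in RefSeq, a set that includes genes not used in liver. LKO peaks were found at 24 genes (45.3%), against 26.3% of all protein-coding genes. An overlapping pair, meaning a WT and an LKO peak that shared at least 1 bp, was found at 21 genes (39.6%), against 22.7%. There were 14 genes with WT peaks only, and 3 genes (Rb1cc1, Wipi1 and Atg16l2) with LKO peaks only. WT peaks outnumbered LKO peaks at 26 genes, the numbers were equal at 8, and LKO peaks outnumbered WT peaks at 4. The WT list was also longer as a whole, with 20040 peaks against 12495 in LKO. The same counts by gene were not made over all genes, so these numbers do not set the 53 genes apart. A wider list of 86 other autophagy and lysosome genes had WT peaks at 49 genes (57%), LKO peaks at 42 (48.8%) and overlapping pairs at 35 (40.7%). No test was run on these shares, because the genes were named with results of these data known.

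**Figure D1:**
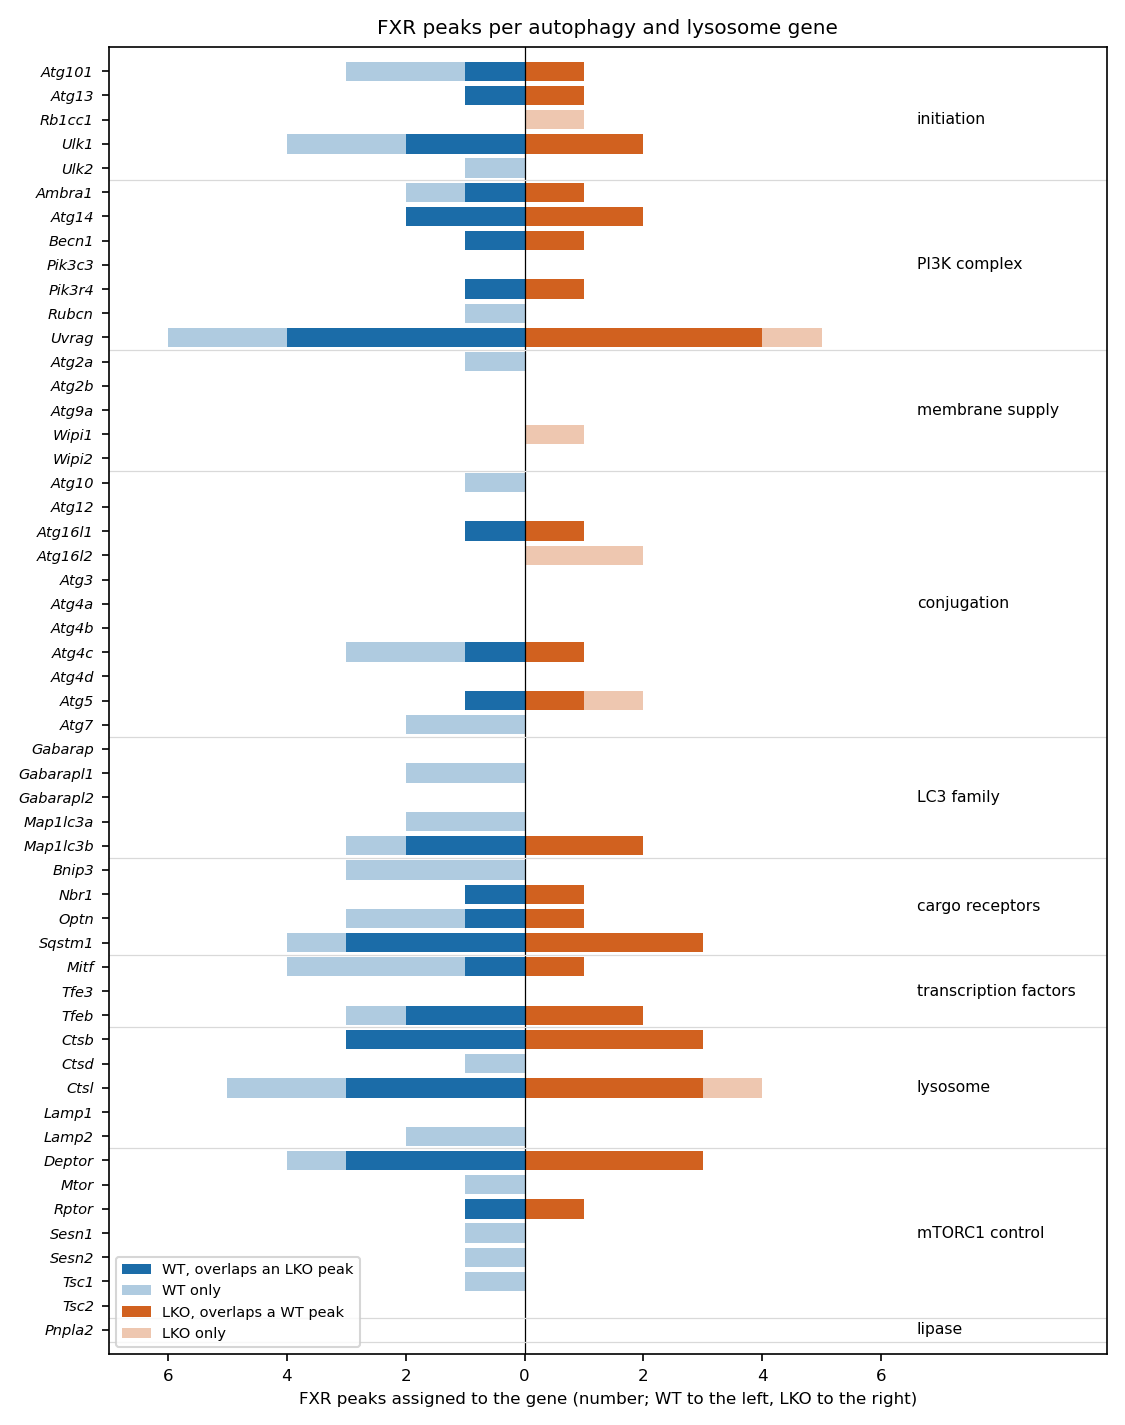
Number of FXR peaks per gene, with WT peaks drawn to the left of 0 and LKO peaks to the right, for the 53 genes grouped by role. Dark bars count peaks that overlapped a peak of the other list and pale bars those that did not. Uvrag has the longest WT bar with 6 peaks, and 15 genes have no bar.

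The peaks are described by the steps of the pathway, in counts only. The ULK complex starts autophagosome formation. Of its 5 genes, 4 had WT peaks, 4 had LKO peaks and 3 had an overlapping pair. Together they had 9 WT peaks, 5 LKO peaks and 4 overlapping pairs. Ulk1, the kinase of the complex, had 4 WT peaks and 2 LKO peaks. The class III PI3-kinase complex marks the forming membrane. Of the 7 genes grouped with it here, 6 had WT peaks and 5 had LKO peaks, 13 and 10 peaks in all. The lipid kinase gene of the complex, Pik3c3, had none. Uvrag, a subunit that also acts in endosome traffic, had 6 WT and 5 LKO peaks. Among the 5 genes that supply membrane there was 1 WT peak (Atg2a, a lipid transfer protein) and 1 LKO peak (Wipi1, a phosphoinositide reader), with no pair. That is 1 gene in 5 per list, too few to set against the shares of all protein-coding genes above.

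The conjugation step attaches LC3 to lipid, and the 11 genes grouped with it had 8 WT and 6 LKO peaks. Of the 11, Atg3, Atg4a, Atg4b, Atg4d and Atg12 had no peak in either list. In the LC3 family, which coats the autophagosome, 3 of 5 genes had 7 WT peaks in all, and Map1lc3b alone had LKO peaks, 2 in number. The 4 cargo receptor genes, whose proteins bring cargo to LC3, all had WT peaks, 11 in total, and 3 had 5 LKO peaks in total. Bnip3, a receptor for mitochondria, had 3 WT peaks and no LKO peak.

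Among the transcription factors that drive lysosomal genes, Tfeb had 3 WT and 2 LKO peaks and Mitf 4 and 1, and Tfe3 had none. Lysosomal genes had 11 WT and 7 LKO peaks. They lay mostly at the cathepsin protease genes Ctsb, with 3 in each list, and Ctsl, with 5 in WT and 4 in LKO. The membrane protein gene Lamp1 had none. Genes of the nutrient-sensing kinase mTORC1 and its regulators had 9 WT peaks at 6 of 7 genes and 4 LKO peaks at 2 genes. Deptor, an mTOR inhibitor, carried 4 of those 9 WT peaks and 3 of the 4 LKO peaks, and Mtor, Sesn1, Sesn2 and Tsc1 had 1 WT peak each and no LKO peak. Pnpla2, the adipose triglyceride lipase gene, had none.

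Overlap between the lists was close to that of all peaks. Of the 76 WT peaks, 36 (47.4%, 95% Wilson interval 36.5 to 58.4) overlapped an LKO peak, against 49.5% of the whole WT list. Of the 43 LKO peaks, 36 (83.7%, 70.0 to 91.9) overlapped a WT peak, against 79.4% of the LKO list. These intervals cover counting error over peaks only, and peaks of 1 gene share a locus. Overlap was more frequent among stronger peaks. Strength is the mean log2 tag value of both ChIP libraries of a genotype. Among WT peaks of these genes at or above the list's median strength, 27 of 40 (67.5%) overlapped an LKO peak, against 75.5% of all such peaks, and below it 9 of 36 (25.0%) did, against 23.5% of all. The median WT peak ranked at percentile 72.2 of its list when it overlapped an LKO peak and at 29.8 when it did not, the same as the medians of all WT peaks (72.2 and 29.8). In LKO the medians were 54.5 for the 36 overlapping peaks and 22.2 for the other 7, against 57.7 and 24.0 for all LKO peaks. The link of overlap with strength was thus a property of the whole lists.

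**Figure D2:**
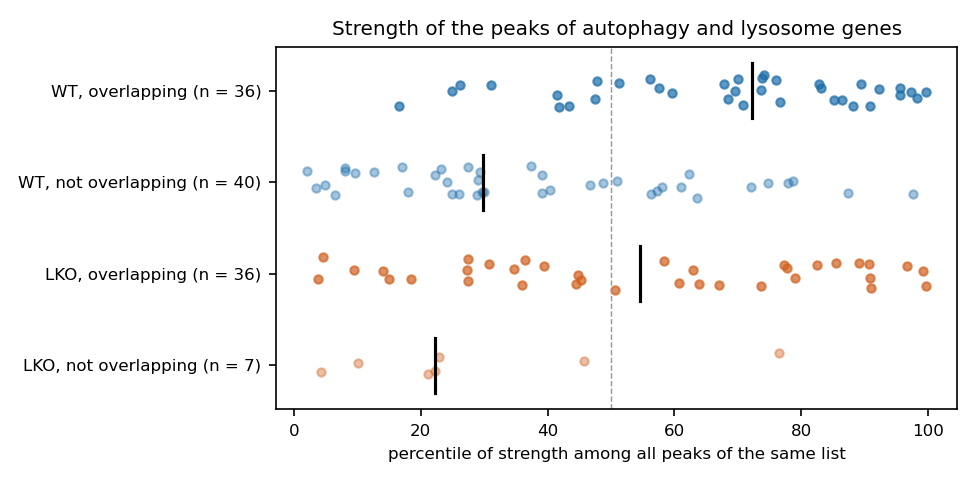
Each point is a peak of an autophagy or lysosome gene, placed on the x axis by the percentile of its strength among all peaks of the same list, with black bars at the medians and vertical scatter for display only. Overlapping peaks have medians of 72.2 (WT) and 54.5 (LKO), and the others 29.8 (WT) and 22.2 (LKO).

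Most of these peaks lay inside genes and outside promoters. The promoter-TSS class held 9 of 76 WT peaks (11.8%, 6.36 to 21), against 11.4% of all WT peaks, and 7 of 43 LKO peaks (16.3%, 8.12 to 30.0), against 11.3%. Introns held 60.5% of the WT peaks and 58.1% of the LKO peaks, against 46.5% and 47.4% of the whole lists. The WT peaks included 25 in a first intron. Intergenic peaks made up 21.1% (WT) and 16.3% (LKO), against 35.3% and 34.3%. By RefSeq coordinates, 52 WT and 29 LKO peaks lay within the body of the gene whose name they carried.

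Nearest-TSS naming did not always point to the transcript in which a peak lay. For 7 WT peaks the annotated position named a transcript of another gene. They were the Sqstm1 peaks in Mrnip, the Uvrag peaks in Dgat2 (which makes triglycerides), a Map1lc3b peak in Zcchc14, a Deptor peak in the noncoding Gm9920 and the Atg13 peak at the start of Harbi1. Conversely, 11 WT peaks and 6 LKO peaks inside the bodies of the 53 genes were named for other genes and were not counted. One of these, in Atg12, scored 66.6 in WT and 37.1 in LKO and was named for Cdo1, although Atg12 is among the genes with no peak of their own name.

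An overlapping pair of the promoter-TSS class was found at Atg5, Nbr1, Deptor, Atg101 and Atg13. Levels at pairs are given as relative log2 levels, which are the deposited log2 tag values minus the same library's median over all 9918 overlapping peaks, because the table of each genotype was normalized separately. For the same reason no test between genotypes was run. Without subtracting the medians, every LKO minus WT difference would be lower by the same amount, a shift of −0.33. Each genotype's level was taken in its own peak, so the windows of a pair could differ in position. A pair was called not overlapping in level when both LKO libraries were above, or both below, both WT libraries.

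Atg5 encodes the core of the enzyme that lipidates LC3. Its promoter peak, at chr10:44268265-44268475 and 31 bp from the TSS, had relative levels of 1.87 and 1.53 in WT and 1.38 and 1.51 in LKO. Both LKO values were below both WT values by a small margin, with a difference of −0.25 (pooled SD 0.18, n = 2 per genotype), or −0.081 without WT replicate 1 and −0.43 without WT replicate 2. The same site was high in both inputs, at deposited log2 values of 3.74 in WT, where the 95th percentile of input over all peaks was 1.85, and 4.33 in LKO, where it was 2.49. It was the only site of these genes with an exact CRE, TGAC joined directly to GTCA, in either list. An exact CRE was found in 0.409% of all WT peaks and 0.4% of all LKO peaks.

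Nbr1 encodes a receptor for ubiquitinated cargo. Its promoter peak, 67 bp upstream of the TSS, had relative levels of 0.78 and 1.08 in WT and 1.45 and 1.49 in LKO. The LKO libraries were thus higher in relative level, by 0.54 (pooled SD 0.15, n = 2), and the input values were 1.13 in WT and 0.20 in LKO. The match to IR1 printed above lies in this peak.

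Atg101 and Atg13 encode partners of the ULK1 kinase. The Atg101 peak, 586 bp upstream of the TSS, stood at 1.34 and 0.80 in WT and 1.55 and 1.40 in LKO, a difference of 0.40 (pooled SD 0.28). The Atg13 peak, 324 bp past the TSS, stood at 0.09 and −0.27 in WT and 0.28 and 0.18 in LKO, a difference of 0.32 (pooled SD 0.19). Its WT and LKO peaks were centred 91 bp apart, and the part of this shift in the difference was not tested. At both promoters the LKO libraries were above the WT libraries, but the WT values were further from each other than the genotype means were. Without WT replicate 2 the differences were 0.13 at Atg101 and 0.14 at Atg13, and without WT replicate 1 they were 0.67 and 0.50. Without subtracting the library medians the differences were 0.073 at Atg101, −0.0092 at Atg13 and 0.21 at Nbr1. Atg101 was also high in both inputs (2.66 in WT, 2.50 in LKO) and Atg13 in the WT input (2.64). The LKO input at Atg101 passed the 95th percentile of 2.49 only narrowly.

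The Deptor promoter peak stood at −0.41 and −0.63 in WT and −0.78 and −0.56 in LKO, and the groups overlapped. A second, stronger Deptor pair lay 173 bp from an upstream TSS, in exon 2 of Gm9920, with a score of 94.9 in WT and 37.8 in LKO. Its relative levels were 1.38 and 1.09 in WT and 1.02 and 1.07 in LKO. Both LKO values were below both WT values, with a difference of −0.19 (pooled SD 0.15), or −0.043 without WT replicate 1. Of all promoter peaks of these genes, 3 of 9 in WT and 2 of 7 in LKO were above the 95th percentile of input. Of all promoter peaks, 12.9% in WT and 11% in LKO were above it, and of all peaks 5% by construction. The part of input in these promoter values was not tested.

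Sqstm1 held the strongest FXR binding of the group. It encodes p62, which links ubiquitinated cargo to LC3. The deposited peak score is read here as pooled ChIP tags per 10000000. No header states this, and it was inferred because scores under 50 gave whole tag numbers for 100% of WT and 93.3% of LKO peaks, so the tag numbers printed here are inferred too. The score was 304.9 (668 tags) in WT and 190.6 (837 tags) in LKO at the peak 13106 bp from the TSS. That peak ranked at percentile 99.6 of the WT list and 99.7 of the LKO list. The deposited log2 values were 8.01 and 8.65 in the WT ChIP libraries against 0.13 in input, and 8.35 and 8.31 in the LKO libraries against 1.86 in input. Both libraries of each genotype were thus far above their input.

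The runner-up, 15828 bp from the TSS, scored 191.3 in WT and 151.6 in LKO. Both sites lay beyond the far end of Sqstm1, at 2333 bp and 5055 bp from the gene body, in introns 6 and 4 of the neighbouring Mrnip. Another pair lay in intron 7 of Sqstm1 itself, 9022 bp from the TSS, with scores of 52.5 and 30.1. The remaining peak, in intron 1 and scoring 21.5, was in the WT list only.

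In relative level the strongest Sqstm1 site stood at 2.99 and 3.12 in WT and 3.31 and 3.47 in LKO, 0.33 higher in LKO (pooled SD 0.10), or −0.00017 without subtracting the library medians. The site at 15828 bp stood at 2.38 and 2.29 in WT and 3.06 and 3.06 in LKO, 0.72 higher (pooled SD 0.049). At both sites the LKO libraries lay above the WT libraries. At the second, input was 0.02 in WT and 3.05 in LKO, the latter above the 95th percentile of that list, and its part in the difference was not tested.

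Uvrag had a cluster of peaks, most of them inside its own long gene. In the WT list, single peaks at Map1lc3a (score 160.2) and Ctsb (148.4) scored higher than any Uvrag peak. The strongest Uvrag peak, in intron 3 and 34089 bp from the TSS, scored 132.8 in WT and 88.8 in LKO. Its relative levels were 1.86 and 1.59 in WT and 2.31 and 2.22 in LKO, 0.55 higher in LKO (pooled SD 0.14), with input at −0.07 and 0.33. The weaker peak at 49099 bp stood at −0.98 and −0.82 in WT and −0.26 and −0.11 in LKO, 0.71 higher (pooled SD 0.11). The LKO libraries were above the WT libraries at both, but input at the second was −0.46 in WT and 2.44 in LKO. Other Uvrag sites differed from these, since the pair at 40395 bp overlapped between genotypes and the pair 20483 bp upstream, in Dgat2, was lower in both LKO libraries (difference −0.42, or −0.079 without LKO replicate 1).

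**Figure D3:**
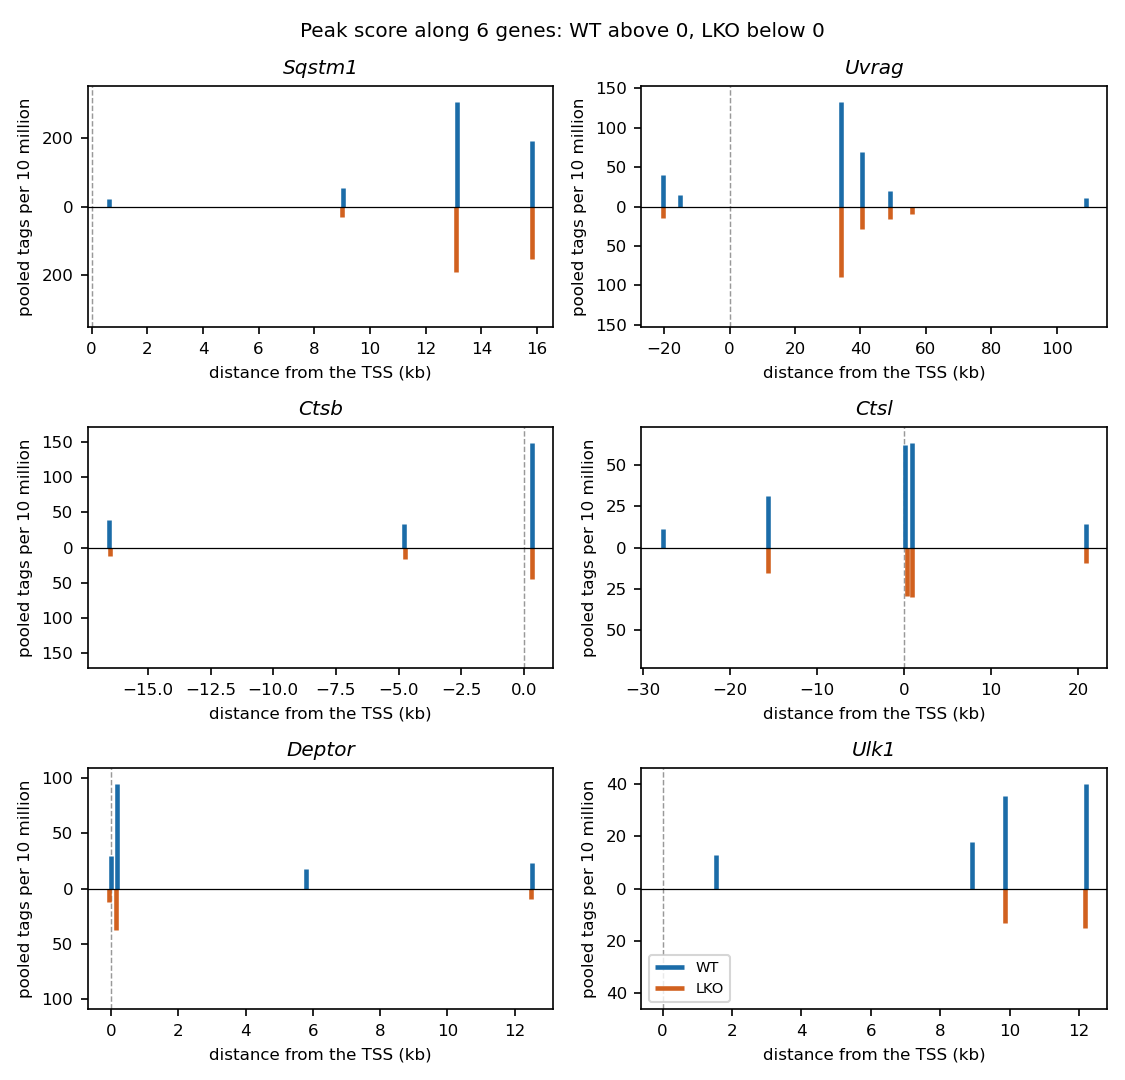
Peak score, in pooled tags per 10000000, against distance from the TSS in kb for 6 genes, with WT drawn above 0 and LKO below and a dashed line at the TSS. The Sqstm1 peaks at 13106 and 15828 bp reach 304.9 and 191.3 in WT, the highest of the 6 panels, whose y axes differ.

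Ctsb had pairs that were lower in LKO. It encodes the lysosomal protease cathepsin B, and its peak in intron 1, 324 bp past the TSS, stood at 1.99 and 2.12 in WT and 1.33 and 1.27 in LKO. The difference of −0.75 (pooled SD 0.071) was the most negative of the 36 pairs. Input there was 3.59 in WT, above the 95th percentile, and 0.17 in LKO. The Ctsb peak 16551 bp upstream stood at 0.05 and 0.07 in WT and −0.72 and −0.61 in LKO, a difference of −0.73 (pooled SD 0.055). Both LKO libraries were lower at both sites, and at the upstream one the inputs were −0.32 in WT and −0.13 in LKO. The remaining Ctsb pair, 4790 bp upstream, stood at −0.45 and 0.14 in WT and −0.46 and −0.18 in LKO, and the groups overlapped (difference −0.16, pooled SD 0.33).

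Mitf encodes a relative of TFEB. Its pair 44066 bp upstream of the TSS used, inside intron 1 of a longer transcript, stood at −0.68 and −0.80 in WT and −0.12 and 0.13 in LKO. This difference of 0.75 (pooled SD 0.14) was the most positive of the 36. It was seen at a modest site whose score was 24.7 (54 tags) in WT and 18.7 (82 tags) in LKO. The pooled SD measures the spread between replicates and need not cover counting error at so few tags. The Mitf pair also held a DR1 with 2 mismatches. Mitf had no peak of the promoter-TSS class.

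Over all 36 pairs, both LKO libraries were above both WT libraries in relative level at 11 (30.6%), against 29.8% of all overlapping peaks, and both below at 7 (19.4%), against 25.2%. The groups thus did not overlap at 18 (50%), against 55.1% of all. Differences ranged from −0.75 to 0.75. Their median was 0.040, against 0.026 over all 9918 pairs, and it was −0.015 without WT replicate 1 and 0.12 without WT replicate 2. The medians of the 36 relative levels were −0.0025 and 0.045 in the WT libraries and −0.13 and −0.044 in the LKO libraries, so the difference of library medians, −0.11 (pooled SD 0.047), had the opposite sign. The genes together therefore had no direction that both summaries share.

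**Figure D4:**
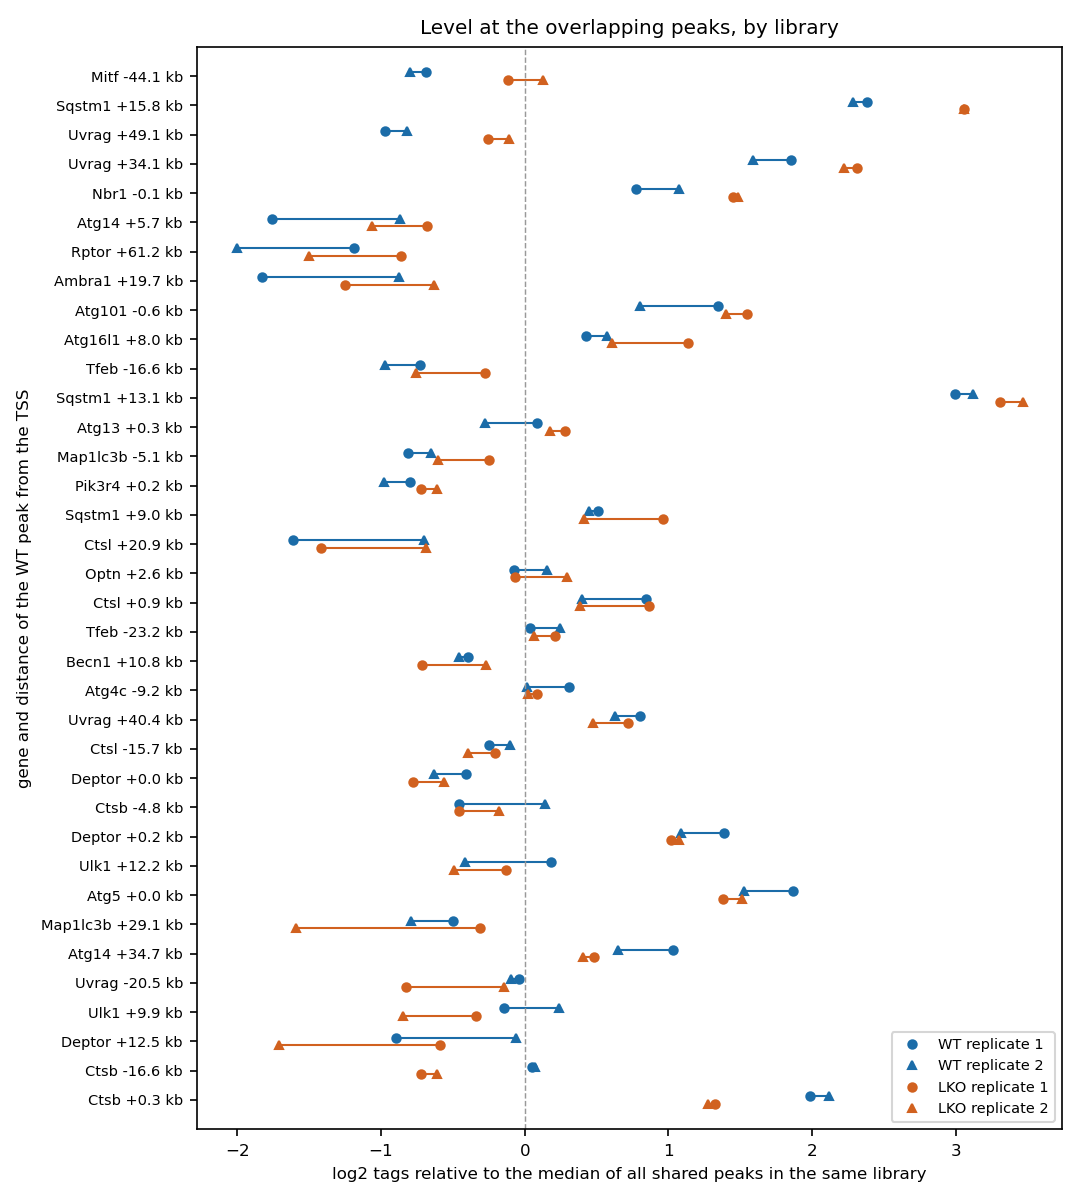
Relative log2 level of each ChIP library (blue for WT, orange for LKO, circles for replicate 1 and triangles for replicate 2) at the 36 overlapping pairs, ordered by the LKO minus WT difference, with lines joining replicates. At the top Mitf differs by 0.75 and at the bottom Ctsb by −0.75, and 18 of the 36 pairs have groups that overlap.

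The pooled score gives a different picture from the relative level. It was lower in LKO at 36 of 36 pairs, but also at 95.7% of all overlapping peaks, and the median LKO to WT ratio was 0.536 for these genes (0.300 to 0.806) and 0.507 for all. Relative to that overall ratio, 19 pairs were above it and 17 below. Which part of the overall shift comes from depth, from enrichment or from binding cannot be told apart with 2 libraries per genotype.

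**Figure D5:**
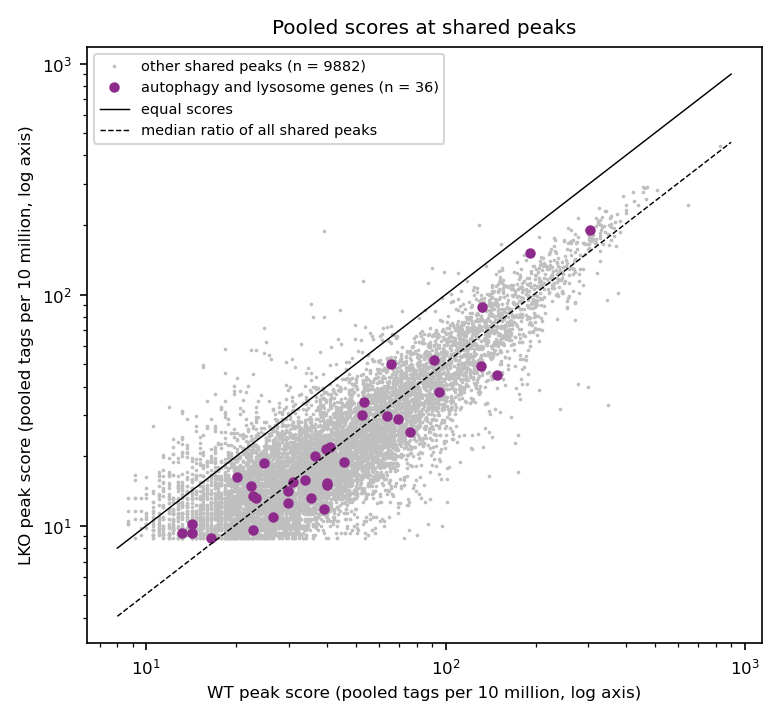
LKO against WT peak score (pooled tags per 10000000, log axes) at the 36 pairs of autophagy and lysosome genes (purple) and the other 9882 overlapping pairs (grey), with lines for equal scores and for the median ratio of 0.507. All purple points lie under the line of equal scores, with 19 above and 17 below the median ratio.

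Of the 40 WT peaks without an LKO partner, 16 had a score that, multiplied by that median ratio, falls under the lowest score in the LKO list (8.88), against 49.3% of all WT-only peaks. At or above the median strength were 13 of the 40 (32.5%, 20.1 to 48.0), against 24.2% of all WT-only peaks. The strongest was at Map1lc3a, which encodes LC3A. It lay in intron 1, 471 bp past the TSS, at chr2:155276730-155276940, and scored 160.2 (351 tags), with log2 values of 7.16 and 7.63. It was at percentile 97.6 of the WT list, and only 95 of the 2004 WT peaks in the strongest 10% lacked an LKO partner. Its input was 3.21, above the 95th percentile, and 81.0% of its bases were G or C.

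Next came Ctsl, which encodes cathepsin L. Its WT promoter peak, 87 bp past the TSS, scored 62.1, with log2 values of 5.73 and 6.36 and input at 1.82. The strongest LKO peak without a partner was also at Ctsl, 314 bp past the TSS, with a score of 29.6 and log2 values of 5.54 and 5.50. The gap between both Ctsl peaks was 19 bp, so they fell short of the overlap rule while lying side by side. The third strongest WT peak without a partner by mean log2 value was an intronic Mitf peak 57725 bp upstream, scoring 47.5, with log2 values of 5.42 and 5.66.

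The other WT-only promoter peaks were at Bnip3 (score 49.8), Atg10 (38.3) and Gabarapl1 (14.2). Among LKO-only peaks, the Rb1cc1 promoter peak, 513 bp upstream of the TSS, scored 14.8 with log2 values of 4.63 and 4.67. Rb1cc1 encodes FIP200, the scaffold of the ULK complex. Atg16l2, a relative of the conjugation scaffold gene Atg16l1, had an LKO-only peak in exon 15, scoring 10.5 with log2 values of 4.42 and 3.93, and another at its promoter scoring 11.6. All 3 were weak, under the median strength of the LKO list.

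IR1 matches were about as frequent as in the whole lists. The element with up to 2 mismatches was found in 9 of 76 WT peaks (11.8%, 6.36 to 21), against 11.8% of all WT peaks and 0.896% of windows of the same length 2 kb to either side. In LKO IR1 was found in 6 of 43 (14.0%, 6.56 to 27.3), against 16.2% of the list and 0.976% of such windows. DR1, searched on both strands as AGGTCA repeated after any 1 base with up to 2 mismatches, was found in 12 WT peaks (15.8%), against 12.8%, and in 3 LKO peaks (6.98%), against 11.9%. Both motifs share a hexamer and can overlap.

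The Tfeb peak 12338 bp past the TSS held both, an IR1 with 1 mismatch and an exact DR1. It scored 28.3 (62 tags), with log2 values of 4.43 and 5.49 against −0.38 in input, and it had no LKO partner. The Sesn1 peak, 35563 bp upstream of the TSS used but in intron 1 of Sesn1, was weak, with 30 tags and log2 values of 3.48 and 3.50. Sesn1 encodes a stress-induced mTORC1 inhibitor. CLEAR, searched as GTCAC joined directly to GTGAC with up to 1 mismatch, was found at 1 WT peak, 27720 bp upstream of Ctsl, against 0.903% of all WT peaks, and at 0 of the 43 LKO peaks, against 0.784%. That Ctsl peak was weak, with 24 tags and at percentile 3.43 of the WT list, and it had no LKO partner. A match is a description of the letters and was not tested for occupancy by any factor.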

How the data were processed

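Livers were crosslinked with disuccinimidyl glutarate and formaldehyde, and FXR-bound chromatin was sequenced as 100 bp single-end reads. Per the labels and the study's methods, the authors aligned reads to mm10 with Bowtie 1.2 and, with HOMER 4.10, called peaks per genotype on both ChIP libraries pooled against input, keeping those past an adjusted p of 0.05 and a log2 fold of 1. The deposited log2 values per library are tag counts per peak that the authors normalized within each table, taken to be a regularized log transform, which shrinks low values. The deposited peak score is a signal read here as pooled tags per 10000000, which no header states. Below a score of 50 it gave whole tag numbers (tolerance 0.2) for 100% of WT and 93.3% of LKO peaks. The distance to the TSS and the gene name are the authors' annotation. The authors' fold change, p-value and adjusted p-value columns, ChIP against input, were not used.

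Peaks were selected by gene name in Python 3.11.15 with pandas 2.3.3. Overlap needed 1 bp. Input was called high above its 95th percentile in the list. Motifs were scanned in GRCm38.p6, inside whose chromosomes all 32535 peaks fell. The deposited distance was compared with that to a RefSeq TSS of the named gene, for part of each list. It was within 2 bp for 13463 of 14821 WT peaks (90.8%) and 8391 of 9224 LKO peaks (91.0%). The rate was lower for peaks of the autophagy and lysosome genes, at 59 of 76 in WT (77.6%) and 32 of 43 in LKO (74.4%). Shares carry 95% Wilson intervals, which cover counting error only. A limma test between genotypes had been planned for the case that both tables shared a scale. They were normalized separately, so it was not run, and 2 against 2 libraries could not pass an exact permutation test at 0.05. The peaks described singly were, by rule, promoter pairs, the 5 strongest peaks per list, the 3 strongest without a partner, the 5 largest level differences without group overlap, and IR1 matches with at most 1 mismatch. The Deptor pair in Gm9920, the Sqstm1 peaks beyond the strongest 2, the remaining Uvrag and Ctsb pairs, the Atg12 peak and the remaining peaks without a partner were chosen after their values were seen. The overlap step was checked on copies of the WT peaks moved by a short or a long distance, where the answer is known in advance. The IR1 search was checked on elements planted in random sequence. The choice of a single partner per peak was not tested. The members and lists were chosen with earlier results of these data known.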

Additional observations from a re-analysis of the deposited data

How the results depend on the processing

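Keeping peaks at or above the median strength left 40 WT and 20 LKO peaks, the latter at 15 genes. With both lists cut to the same length, 64% of the WT peaks of these genes overlapped an LKO peak, where fewer weak WT peaks enter by construction. A centre within 1 kb of the TSS was found for 22.4% of the WT peaks of these genes (14.5 to 32.9), against 16.7% of all WT peaks. An exact IR1 was found in 0% of WT and 0% of LKO peaks. The median level difference (0.040) changed sign when libraries were centred on their mean (−0.027) or not centred (−0.29). Leaving out 1 library gave −0.015 (without WT replicate 1) to 0.12 (without WT replicate 2). Settings chosen after the data were seen gave −0.11 (difference of library medians), −0.90 (pooled score) and 0.080 (pooled score less its median over overlapping peaks). The cause was not tested. Of 18 pairs (the named ones and all others of Sqstm1, Uvrag, Ctsb and Deptor), 5 changed sign in at least 1 of 6 settings. Without centring these were the Sqstm1 sites at 13106 bp (−0.00017) and 9022 bp (−0.12) and the Atg13 promoter (−0.0092). Leaving out 1 library did so at Sqstm1 9022 bp (−0.065 without LKO replicate 1), Ctsb 4790 bp upstream (0.14 without WT replicate 2) and Uvrag 40395 bp (0.0095 without LKO replicate 2), pairs whose groups overlapped. No paired analysis was possible because nothing in the labels ties same-numbered libraries of the genotypes together, and tables normalized separately gave no common fit. Whether depth limits the number of peaks was not tested. The pooled WT libraries held 21906335 tags and gave 20040 peaks, and the LKO libraries 43924876 tags and 12495 peaks.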
